A study of Mus musculus with 15 samples.

Results

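The collagen and matrix genes that mark stromal cells were examined in erythroid cells purified from mouse fetal liver. The set was a list of 38 genes for collagen chains, basement membrane proteins, proteoglycans, matrix glycoproteins and markers of fibroblasts, stellate cells and smooth muscle. Of these, 37 had a transcript cluster of their own on the array, out of 23410 clusters with a gene symbol, and Fbn1 was not analysed here. A transcript cluster is the group of probes that the array reads as 1 gene, and every value is a deposited log2 signal, so that a difference of 1 is a doubling. The array medians lay between 6.28 and 6.41. In 3 of the 37 genes, Mgp, Lox and Lrat, the mean was below those medians in all 4 genotypes, and no fold is given for them.

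The samples were 15 arrays of TER119-positive cells taken at E13.5 from FVB/NJ embryos. TER119 is a surface antigen of maturing red cells, and the cells were enriched with magnetic beads against it. The groups were 4 wild-type arrays, 4 Klf8gt/gt arrays that carry a gene trap in Klf8, 3 Klf3-/- arrays, and 4 Klf3-/- Klf8gt/gt arrays, called doubly mutant here. Both alleles are germline changes, present in every cell of the embryo and not in erythroid cells alone. KLF3 and KLF8 are closely related zinc finger repressors that bind CACCC-type DNA motifs, and the design asks what loss of either or both changes. The labels do not say that each array is a separate embryo, so the p-values measure only the spread among these arrays, part of which may be technical. The series' design text says that samples were matched by litter where it could be done, without saying which arrays share a litter, so arrays of different genotypes may not be independent as the unblocked p-values assume.

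Fibroblasts, hepatic stellate cells, pericytes and mesothelial cells make most of the interstitial matrix of a liver. Fibrillar collagens assemble into the load-bearing fibres, collagen VI forms beaded microfibrils near the cell surface, and collagen IV with laminins and nidogen forms basement membranes. Erythroblasts mature beside macrophages and stroma, bind fibronectin through integrins, and are not known as a main source of fibrillar collagen. A bulk array cannot tell apart more cells of a type from more RNA per cell.

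The purified cells carried erythroid transcripts, and all 8 measured erythroid markers lay above the array medians, while markers of other cells were detected as well. Of 15 macrophage markers, 13 lay above the array medians on average, and so did all 9 measured hepatocyte, all 12 endothelial and 11 of 13 pericyte and stellate markers. Genotype means were 12.17 to 12.49 over the erythroid markers and 12.24 to 12.88 over the hepatocyte markers. These levels do not measure shares of cells. The mean macrophage signal was 8.93 to 9.23 in wild-type, 8.46 to 9.01 in Klf8-trap, 8.33 to 8.84 in Klf3-null and 7.14 to 8.71 in doubly mutant arrays. By the Y-linked signal the 4 wild-type arrays were male, and Klf8-trap replicates 1 and 4, Klf3-null replicates 1 and 2, and doubly mutant replicates 3 and 4 were female. Within its group, doubly mutant replicate 1 had the lowest mean correlation with the others (r 0.986, the group ranging to 0.990). Doubly mutant replicates 3 and 4 were close to it, at 0.988 and 0.987. Klf8-trap replicate 1 had the lowest of its own group (0.988, the group ranging to 0.994). The Klf3 signal was 11.32 ± 0.14 (SD, n = 3) in arrays labelled Klf3-null against 10.27 ± 0.17 (SD, n = 4) in wild type. The sources used here do not say which part of Klf3 those probes read, so this signal does not test the label. The Klf8 signal was 5.36 ± 0.18 (SD, n = 4) in wild-type and 5.39 ± 0.087 (n = 4) in Klf8-trap arrays, both below the array medians, so it does not test the trap there, and it was 8.71 ± 0.26 (n = 3) in Klf3-null and 7.29 ± 0.55 (n = 4) in doubly mutant arrays. Genotypes are given as labelled.

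Doubly mutant arrays had higher signals of both type I collagen genes, Col6a2 and Igfbp5 than wild type. Against wild type 4 of 37 genes passed the threshold of an adjusted p under 0.05, all 4 higher (10.8%), where 1.52% of all tested clusters passed as higher. They were Col1a1, Col1a2, Col6a2 and Igfbp5. None was lower, where 1.78% of all clusters were. The mean macrophage signal was lower in doubly mutant arrays, and with it as a covariate 0 of the 37 passed. Genotype and that signal differ together, so this count does not tell them apart. Over all clusters 772 passed in the main fit, and 262 to 2260 over the alternative settings. The count with that covariate alone is not given here, so the 0 has no matching share. By an unadjusted p under 0.05, 14 of 37 differed, against 17.9% of all clusters. In 8 genes (21.6%) no doubly mutant array was as low as any wild-type array, against 3.64% of clusters. Over the 37 genes 32 had a difference above 0, against 44.5% of all clusters, and the median difference was 0.21, against -0.02 over all clusters. The array with the highest signal was a doubly mutant one for 30 of 37 genes (81.1%), against 34.5% of all clusters. Doubly mutant replicate 3 was highest for 17 of the genes and replicate 2 for 10.

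**Figure D1:**
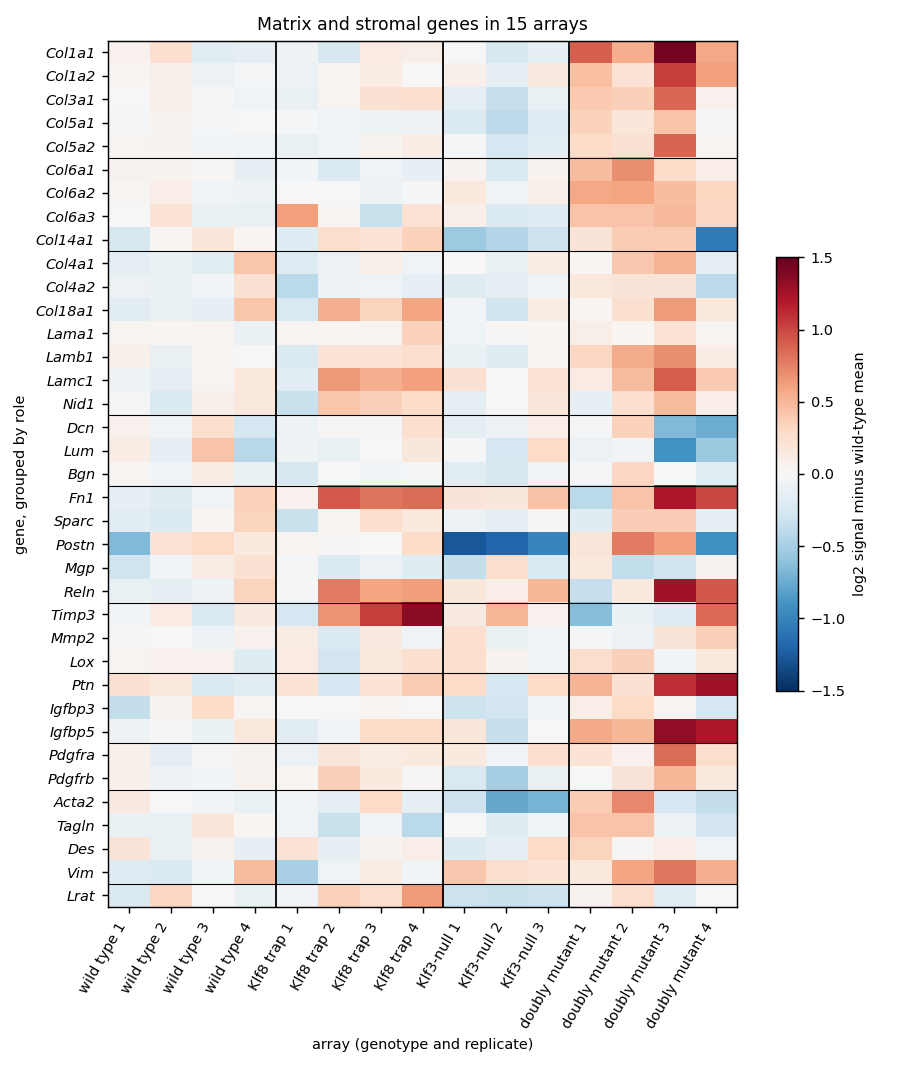
Log2 signal of each of the 37 genes on each of the 15 arrays, minus the gene's mean over the 4 wild-type arrays; rows are genes grouped by role, columns are arrays grouped by genotype, and the colour scale gives the log2 difference. The doubly mutant columns hold the highest array for 30 of 37 genes, and the fibrillar collagens are highest in doubly mutant replicate 3.

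Col1a1 and Col1a2 encode the chains of type I collagen, the main fibrillar collagen of connective tissue. The Col1a1 signal was 9.77, 9.95, 9.53 and 9.56 in wild-type replicates 1 to 4, 9.63, 9.47, 9.83 and 9.79 in Klf8-trap replicates 1 to 4, 9.71, 9.46 and 9.57 in Klf3-null replicates 1 to 3, and 10.60, 10.25, 11.13 and 10.28 in doubly mutant replicates 1 to 4. The 4 doubly mutant arrays lay above all 11 others, with replicate 3 the highest, and the other 3 groups overlapped. The difference from wild type was 0.86 ± 0.16 (SE; 1.82-fold, adjusted p = 0.00793, higher in 4 of 4 arrays). The Col1a2 signal was 9.19, 9.25, 9.08 and 9.14 in wild-type replicates 1 to 4, 9.07, 9.19, 9.27 and 9.16 in Klf8-trap replicates 1 to 4, 9.24, 9.01 and 9.30 in Klf3-null replicates 1 to 3, and 9.62, 9.37, 10.20 and 9.78 in doubly mutant replicates 1 to 4. Again the doubly mutant arrays lay above the other 11, with replicate 2 closest to them, and the difference from wild type was 0.58 ± 0.13 (1.49-fold, adjusted p = 0.0245). The Col1a2 call was lost without wild-type replicate 1, 2 or 3, and its adjusted p over the alternative settings ran from 0.00543 to 0.192.

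Type III and type V collagens co-assemble with type I into the same fibres. Their 3 genes had differences from wild type in the same direction that did not pass. The Col3a1 signal in doubly mutant arrays was 9.62, 9.59, 10.09 and 9.29 against 9.22, 9.31, 9.22 and 9.19 in wild type, a difference of 0.42 ± 0.13 with an adjusted p of 0.109. Doubly mutant replicate 4 lay within the wild-type range for Col3a1 and Col5a2 and equalled the lowest wild-type value for Col5a1. The differences of Col5a1 and Col5a2 were 0.23 ± 0.09 (adjusted p = 0.185) and 0.35 ± 0.13 (adjusted p = 0.175). Col3a1 and Col5a2 are neighbours on chromosome 1, with no protein-coding gene between them. Without doubly mutant replicate 4 the count of genes past the threshold was 8, Col3a1, Col5a1, Col6a1 and Lamb1 being added to the 4. Without replicate 1 it was 7, with Fn1, Ptn and Vim added, and without both doubly mutant replicate 1 and Klf8-trap replicate 1 it was 10. Over all clusters it was 772 in the main fit and ran from 382 to 1389 with 1 array left out.

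**Figure D2:**
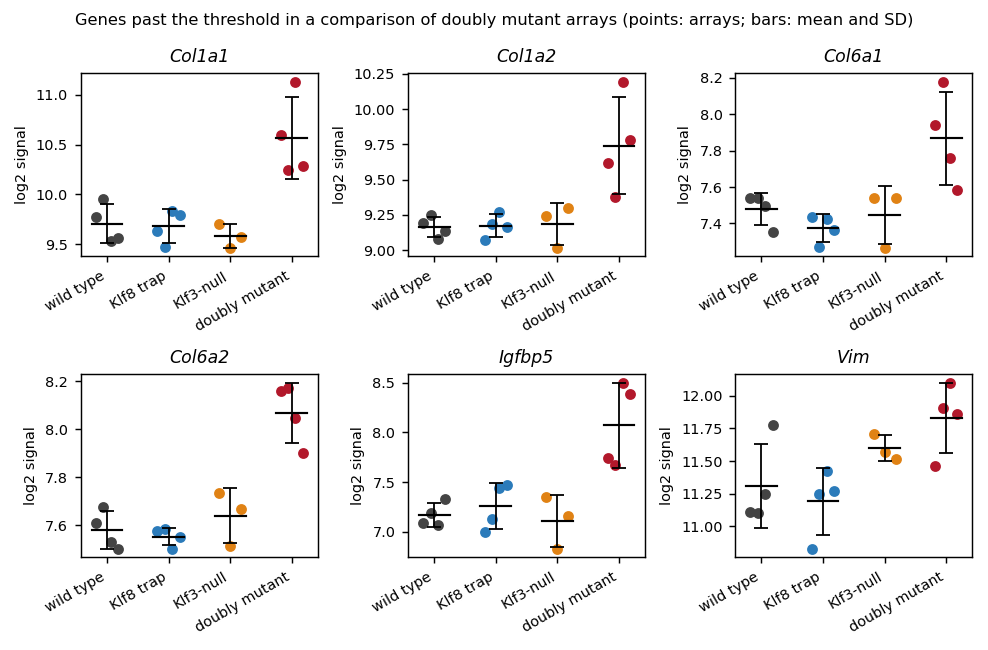
Log2 signal on each array, by genotype, for the 6 genes that passed the threshold in a doubly mutant comparison; points are arrays, and the lines are the group mean with its SD. The doubly mutant points of Col1a1 lie at 10.25 to 11.13, above the other 11 arrays at 9.46 to 9.95.

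Collagen VI is a heterotrimer of the chains encoded by Col6a1, Col6a2 and Col6a3. The Col6a2 signal was 7.61, 7.68, 7.53 and 7.50 in wild-type replicates 1 to 4, 7.57, 7.58, 7.50 and 7.55 in Klf8-trap replicates 1 to 4, 7.74, 7.51 and 7.67 in Klf3-null replicates 1 to 3, and 8.16, 8.17, 8.05 and 7.90 in doubly mutant replicates 1 to 4. The doubly mutant arrays, at 7.90 or more, lay above all others. The difference from wild type was 0.49 ± 0.08 (SE; 1.40-fold, adjusted p = 0.00226). Col6a1, its neighbour on chromosome 10, read 7.94, 8.18, 7.76 and 7.59 in doubly mutant arrays and 7.54, 7.54, 7.50 and 7.35 in wild type. These groups did not overlap either, but the difference of 0.39 ± 0.11 missed the threshold (adjusted p = 0.0755). Col6a3 gave 0.41 ± 0.15 (adjusted p = 0.156) with arrays that did not overlap wild type, and Klf8-trap replicate 1 had the highest Col6a3 signal of all, at 8.54. Col14a1, a fibril-associated collagen, did not follow them, with a difference of -0.02 ± 0.25 (adjusted p = 0.979) and doubly mutant replicate 4 at 8.35 against 9.60 to 9.79 on the other doubly mutant arrays.

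Igfbp5 encodes a secreted binding protein of insulin-like growth factors that also binds matrix. Its signal was 7.09, 7.19, 7.07 and 7.33 in wild-type replicates 1 to 4, 7.0, 7.13, 7.44 and 7.47 in Klf8-trap replicates 1 to 4, 7.35, 6.83 and 7.16 in Klf3-null replicates 1 to 3, and 7.74, 7.67, 8.50 and 8.38 in doubly mutant replicates 1 to 4. All 4 doubly mutant arrays were above the others, and replicates 3 and 4 were above replicates 1 and 2. The difference from wild type was 0.90 ± 0.18 (SE; 1.87-fold, adjusted p = 0.0106). By the Y-linked signal doubly mutant replicates 3 and 4 were female, and replicates 1 and 2 and all wild-type arrays male. The part of sex in the Igfbp5 split was not tested. Ptn, the heparin-binding growth factor pleiotrophin, was also high in replicates 3 and 4, at 8.37, 8.09, 8.97 and 9.12 in doubly mutant and 8.09, 8.02, 7.65 and 7.69 in wild type. Those ranges did not overlap, though replicate 2 lay close to the top of wild type, and the difference of 0.77 ± 0.21 missed the threshold (adjusted p = 0.0614). Igfbp3 differed by 0.05 ± 0.13 (adjusted p = 0.905).

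Vim encodes vimentin, the intermediate filament protein of mesenchymal cells, which blood cells also make. Its signal was 11.11, 11.10, 11.25 and 11.78 in wild-type replicates 1 to 4, 10.82, 11.25, 11.43 and 11.27 in Klf8-trap replicates 1 to 4, 11.71, 11.57 and 11.52 in Klf3-null replicates 1 to 3, and 11.46, 11.91, 12.10 and 11.86 in doubly mutant replicates 1 to 4. Doubly mutant arrays overlapped wild-type replicate 4, the high one of its group, and they overlapped Klf3-null arrays, but they lay above all Klf8-trap arrays. The difference from wild type was 0.52 ± 0.17 (SE, adjusted p = 0.104). The contractile genes Acta2, Tagln and Des, which mark smooth muscle and activated stellate cells, differed from wild type by 0.12 ± 0.20, 0.12 ± 0.15 and 0.10 ± 0.12 (adjusted p 0.748 to 0.816). For Acta2 and Tagln the doubly mutant arrays were split, replicates 1 and 2 reading 8.99 and 9.33 for Acta2 and replicates 3 and 4 reading 8.36 and 8.25. By the Y-linked signal replicates 1 and 2 were male and replicates 3 and 4 female, and the part of sex in the split was not tested.

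The promoters of genes that passed the threshold in a doubly mutant comparison are shown because the mutated factors bind CACCC-type motifs. Each is the 250 bases before a RefSeq start site in GRCm38.p6, 5′ to 3′ on the gene's strand. Capitals mark CACCC or its reverse complement GGGTG. The positions are chr6:4505368-4505617 on the plus strand for Col1a2, chr10:76623631-76623880 on the minus strand for Col6a2, chr10:76726045-76726294 on the minus strand for Col6a1, chr1:72874866-72875115 on the minus strand for Igfbp5 and chr2:13574061-13574310 on the plus strand for Vim.
Col1a2: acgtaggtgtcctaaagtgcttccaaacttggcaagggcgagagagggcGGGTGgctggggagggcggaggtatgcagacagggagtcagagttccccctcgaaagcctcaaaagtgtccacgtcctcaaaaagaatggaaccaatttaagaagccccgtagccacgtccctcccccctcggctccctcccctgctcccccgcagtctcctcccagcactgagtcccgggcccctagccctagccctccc
Col6a2: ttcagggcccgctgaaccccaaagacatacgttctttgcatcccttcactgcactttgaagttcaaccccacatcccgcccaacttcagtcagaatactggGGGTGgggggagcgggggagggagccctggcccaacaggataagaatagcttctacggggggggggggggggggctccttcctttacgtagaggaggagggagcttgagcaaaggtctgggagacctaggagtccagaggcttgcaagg
Col6a1: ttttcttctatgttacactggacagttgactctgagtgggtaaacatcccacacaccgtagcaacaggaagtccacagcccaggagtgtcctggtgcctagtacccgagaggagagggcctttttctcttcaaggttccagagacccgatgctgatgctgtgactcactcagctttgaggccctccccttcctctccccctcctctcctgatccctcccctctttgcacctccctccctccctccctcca
Igfbp5: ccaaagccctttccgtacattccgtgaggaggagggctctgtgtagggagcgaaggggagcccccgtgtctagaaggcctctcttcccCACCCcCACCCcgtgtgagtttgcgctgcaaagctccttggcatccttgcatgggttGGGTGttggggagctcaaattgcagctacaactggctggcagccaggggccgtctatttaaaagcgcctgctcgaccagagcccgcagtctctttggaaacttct
Vim: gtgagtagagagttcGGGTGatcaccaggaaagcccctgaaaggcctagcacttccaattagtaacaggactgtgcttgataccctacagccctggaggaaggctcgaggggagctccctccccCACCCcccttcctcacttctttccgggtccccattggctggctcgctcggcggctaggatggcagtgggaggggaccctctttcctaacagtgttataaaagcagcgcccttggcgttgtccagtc
The Igfbp5 window held 3 such words, the Vim window 2, the Col1a2 and Col6a2 windows 1 each and the Col6a1 window 0. Col6a2 has a second start site, whose window held 1. Windows were at hand for 25 of the 38 listed genes, 28 windows in all, with none for Col1a1. CACCC on either strand was in 22 of the 28 (78.6%), against 52% of 32851 windows of the same length. The longer word CCNCNCCC, where N is any base and which itself holds CACCC when its second N is A, or when its first N is A and its second C, was in 24 of the 28 (85.7%), against 45.9% of all. A match of letters is not a binding site, and the base composition of the windows was not matched.

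Basement membrane genes passed the threshold in 0 of 7 cases against wild type, with all 7 differences above 0 and a median of 0.21. Lamb1, a laminin beta chain, read 8.38, 8.62, 8.76 and 8.18 in doubly mutant arrays and 8.15, 7.95, 8.11 and 8.06 in wild type. These arrays did not overlap, and the difference was 0.42 ± 0.13 (adjusted p = 0.0903). Lamc1, a laminin gamma chain, gave 0.48 ± 0.18 (adjusted p = 0.165), and Klf8-trap replicates 2 to 4 were as high, at 9.16, 9.06 and 9.12. Col4a1 and Col4a2, which start 21 bases apart on opposite strands of chromosome 8, differed by 0.21 ± 0.15 (adjusted p = 0.515) and 0.04 ± 0.13 (adjusted p = 0.922). For both genes wild-type replicate 4 was the highest of its group and doubly mutant replicate 4 the lowest of its own. Col18a1, Nid1 and Lama1 gave 0.27 ± 0.18, 0.17 ± 0.16 and 0.09 ± 0.08 (adjusted p 0.499 to 0.639).

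The small leucine-rich proteoglycans bind collagen fibres and regulate their width. Decorin (Dcn) and lumican (Lum), neighbours on chromosome 10, had differences below 0, of -0.27 ± 0.19 (adjusted p = 0.510) and -0.40 ± 0.20 (adjusted p = 0.312). Dcn read 9.75, 10.12, 9.11 and 9.02 in doubly mutant arrays and 9.83, 9.73, 10.01 and 9.51 in wild type. Lum read 8.23, 8.28, 7.41 and 7.76 in doubly mutant arrays and 8.43, 8.18, 8.75 and 7.91 in wild type. Replicates 3 and 4, the female ones, were the low ones for both, and the part of sex was not tested. Replicates 1 and 2 lay within the wild-type range for Lum, and for Dcn replicate 2 lay above it. Bgn, the related biglycan, differed by 0.03 ± 0.10 (adjusted p = 0.908).

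Among matrix glycoproteins and turnover genes 0 of 8 passed against wild type. Fibronectin (Fn1) read 10.75, 11.59, 12.37 and 12.16 in doubly mutant arrays, from below the wild-type range of 10.97 to 11.50 to well above it, and its difference was 0.56 ± 0.28 (adjusted p = 0.309). Reelin (Reln), a glycoprotein that hepatic stellate cells make, had the same order, 10.12, 10.61, 11.73 and 11.39, and a difference of 0.50 ± 0.28 (adjusted p = 0.367). In both genes replicate 1 was low. Its mean hepatocyte signal was also low, 11.38 against 12.48 to 12.56 on the other doubly mutant arrays, and the part of those cells in these signals was not tested. Sparc, Postn, Timp3 and Mmp2 had differences between -0.02 and 0.17 (adjusted p 0.682 to 0.986). Of the genes below the array medians, Mgp (matrix Gla protein) gave -0.12, Lox (lysyl oxidase) 0.19 and Lrat, which stores retinoid in stellate cells, 0.04. Timp3, an inhibitor of matrix proteases, ranged widely, from 6.41 to 7.90 among doubly mutant arrays. Pdgfra and Pdgfrb, the receptors for platelet-derived growth factor on mesenchymal cells, gave 0.34 ± 0.14 (adjusted p = 0.192) and 0.21 ± 0.11 (adjusted p = 0.358).

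**Figure D3:**
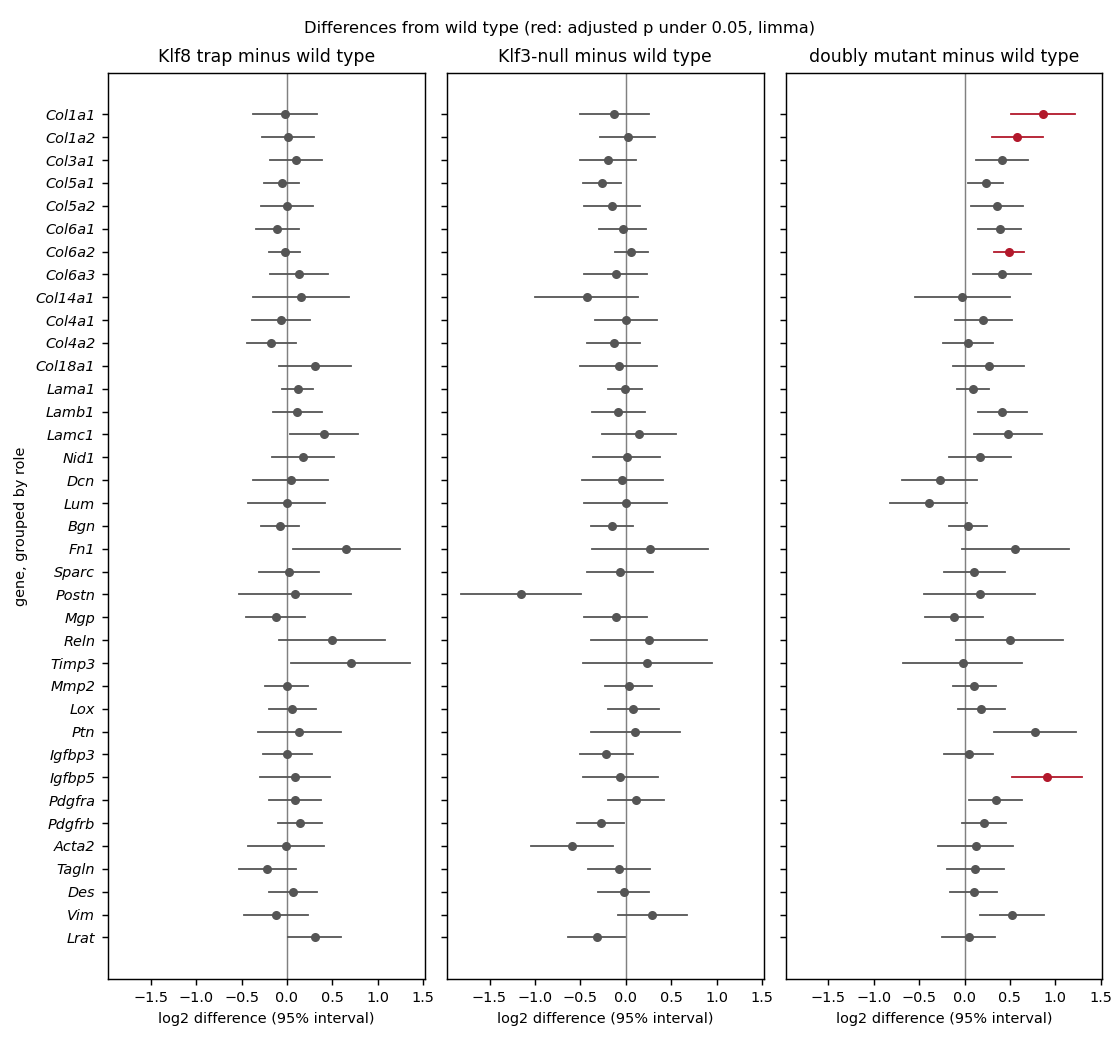
Log2 difference from wild type of each of the 37 genes in Klf8-trap, Klf3-null and doubly mutant arrays, from the limma fit, with 95% intervals; red marks an adjusted p under 0.05. The 4 red points are Col1a1, Col1a2, Col6a2 and Igfbp5 in the doubly mutant panel, at 0.49 to 0.90.

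The fibrillar collagens were set against the other 32 genes, array by array. The mean signal of the 5 fibrillar genes was 8.68 ± 0.08 (SD, n = 4) in wild type, 8.69 ± 0.09 (n = 4) in Klf8-trap, 8.54 ± 0.12 (n = 3) in Klf3-null and 9.17 ± 0.31 (n = 4) in doubly mutant arrays. That of the other 32 was 8.08 ± 0.05, 8.19 ± 0.13, 8.01 ± 0.08 and 8.30 ± 0.12 in the same order. The doubly mutant minus wild-type difference averaged 0.49 over the fibrillar genes and 0.22 over the others, so that the fibrillar genes exceeded the others by 0.27. That excess is given without a test, because the genes share arrays. It rests unevenly on the arrays, since fibrillar minus other was 0.95, 0.60, 1.18 and 0.76 in doubly mutant replicates 1 to 4 and 0.49 to 0.73 in wild type, so that replicate 2 lay within the wild-type range. With the macrophage signal as a covariate the excess was 0.12.

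**Figure D4:**
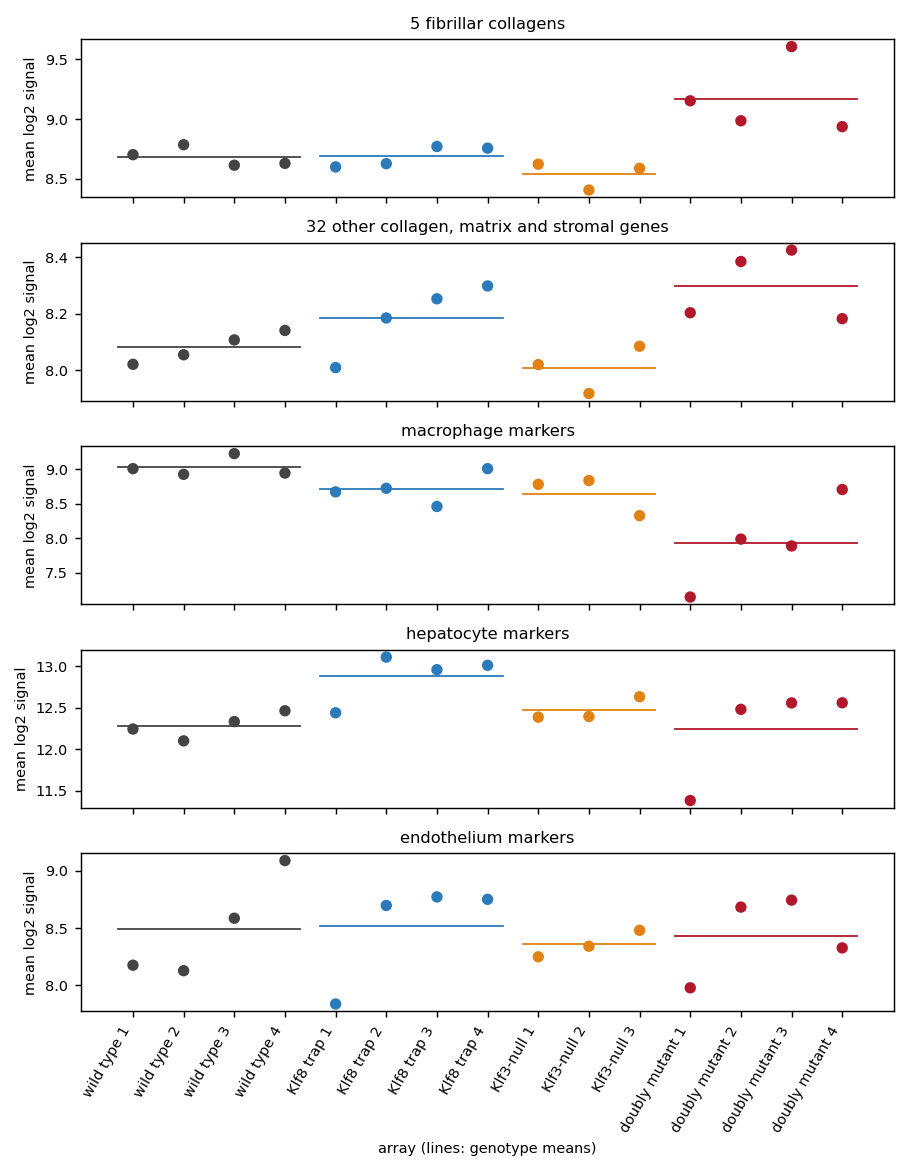
Mean log2 signal of the 5 fibrillar collagen genes and of the other 32 genes on each array, with the mean macrophage, hepatocyte and endothelial marker signals of the same array; points are arrays, coloured by genotype, and lines are genotype means. Fibrillar means are 8.94 to 9.61 in doubly mutant arrays and 8.41 to 8.79 in the other 11, and macrophage means are lowest in doubly mutant replicate 1, at 7.14.

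In the doubly mutant group the mean macrophage signal was lower than in wild type and the fibrillar signal higher. Macrophage means were 9.03 in wild type, 8.72 in Klf8-trap and 8.65 in Klf3-null arrays, and fibrillar means 8.68, 8.69 and 8.54. Among doubly mutant arrays the macrophage signal was lowest in replicate 1 and the fibrillar signal highest in replicate 3. Compared with wild type, 7 of 15 macrophage markers fell in the doubly mutant group, where 1.78% of all clusters did, the median difference over the list being -1.17, and Cd5l fell by 2.54. All 8 measured erythroid markers had differences below 0 as well, with a median of -0.33, and 1 of them passed, the erythroid transcription factor Klf1, which fell by 0.41 (adjusted p = 0.0487). The part of the erythroid signal in the matrix differences was not tested. The alternative settings called 262 to 2260 of all clusters against wild type and 188 to 1777 against Klf8-trap arrays. With the mean macrophage signal as a covariate 0 of 37 matrix genes passed against wild type or against Klf8-trap arrays. These ranges span all settings and give no share of clusters for this one, so the 0 is not particular to matrix genes. Col1a1 then differed from wild type by 0.63 (adjusted p = 0.216, the highest of its alternatives, which began at 0.00454), Col6a2 by 0.34 (adjusted p = 0.160, alternatives from 7.01e-04) and Igfbp5 by 1.19 (adjusted p = 0.0545, alternatives from 0.00317). Igfbp5 lost its call although this difference was above the 0.90 of the fit without the covariate. The part of macrophage content in the matrix differences was not tested, since genotype and macrophage signal differ together. With the Y-linked signal as a covariate 4 genes passed, Col6a1 at 0.47 (adjusted p = 0.0433) taking the place of Col1a2 at 0.53 (adjusted p = 0.0802). Among males alone the Col1a1 signal was 10.60 and 10.25 in doubly mutant replicates 1 and 2, above the 4 male wild-type arrays at 9.53 to 9.95.

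Against Klf8-trap arrays, which share the Klf8 allele but keep Klf3, doubly mutant arrays were higher in 6 of 37 genes (16.2%), where 1.48% of all clusters were higher, and lower in 0, where 1.87% were. The differences were 0.88 ± 0.16 for Col1a1 (1.85-fold, adjusted p = 0.00745), 0.57 ± 0.13 for Col1a2 (1.48-fold, adjusted p = 0.0291) and 0.81 ± 0.18 for Igfbp5 (1.76-fold, adjusted p = 0.0216). Collagen VI gave 0.49 ± 0.11 for Col6a1 (1.41-fold, adjusted p = 0.0249) and 0.52 ± 0.08 for Col6a2 (1.43-fold, adjusted p = 0.00175), and Vim gave 0.64 ± 0.17 (1.56-fold, adjusted p = 0.0470). All 4 doubly mutant arrays lay above all 4 Klf8-trap arrays in these 6 genes (16.2%), against 3.21% of clusters. By an unadjusted p under 0.05, 13 of 37 genes differed, against 18.7% of clusters, and 28 differences were above 0, against 49.3%. Markers of other cells moved in this comparison too, where 1.87% of all clusters fell. Of 15 macrophage markers 3 fell (list median -0.73), and of 9 hepatocyte markers 1 fell (list median -0.74), the plasma protein gene Ahsg, by 1.10 (adjusted p = 0.0328). Of 5 megakaryocyte markers 0 passed, with a list median of -0.77. The mean hepatocyte signal was 12.44 to 13.11 in Klf8-trap and 11.38 to 12.56 in doubly mutant arrays, and the mean megakaryocyte signal was 9.28 to 10.88 and 9.19 to 10.54. The part of hepatocytes and megakaryocytes in the matrix differences was not tested. This comparison shares its doubly mutant arrays with the one against wild type, so they are not independent.

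The Vim call against Klf8-trap arrays was the least stable, and 17 of 25 alternative settings lost it, with adjusted p from 0.00840 to 0.146. Deviations of same-numbered arrays of these 2 groups correlated at 0.53 in replicate 1 and at 0.11 to 0.18 in the others. With the replicate number as a block in a fit of these 2 groups alone, Col1a2 (adjusted p = 0.0567) and Col6a1 (adjusted p = 0.0867) were lost. Timp3 and Ptn were gained. Adjusted p over the alternatives ran from 0.00568 to 0.214 for Col1a2 and from 0.00463 to 0.388 for Col6a1. The count was 2 without Klf8-trap replicate 2, 3 without Klf8-trap replicate 3 or 4 or doubly mutant replicate 3, and 11 without doubly mutant replicate 4. Over all clusters it was 785 in the main fit and ran from 393 to 1777 with 1 array left out. Timp3 read 6.80, 7.72, 8.08 and 8.40 in Klf8-trap and 6.41, 6.95, 6.85 and 7.90 in doubly mutant arrays, and its difference of -0.72 ± 0.31 did not pass in the fit of all arrays (adjusted p = 0.220). Fn1 and Reln, with differences from wild type above 0, differed from Klf8-trap arrays by -0.09 ± 0.28 (adjusted p = 0.891) and 0.00 ± 0.28 (adjusted p = 0.996).

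Against Klf3-null arrays, which share the Klf3 allele, no gene passed, and 0.0470% of all clusters did. By an unadjusted p under 0.05, 15 of 37 genes differed, against 12.9% of all clusters, and 33 of 37 differences were above 0, against 45.6%. In 14 genes (37.8%) all doubly mutant arrays were above all Klf3-null arrays, against 4.50% of clusters. Col1a1 was closest to the threshold, with a difference of 0.99 ± 0.18 (SE) and an adjusted p of 0.0721. Postn, periostin, a matricellular protein of fibroblasts, had the largest difference, 1.32 ± 0.31 (adjusted p = 0.128). The count went from 0 to 2 without doubly mutant replicate 1 (Col1a1 and Igfbp5), to 1 without replicate 2 (Col1a1) and to 11 without replicate 4. Over all clusters it was 11 in the main fit and ran from 1 to 484 with 1 array left out.

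In neither single mutant did a gene of the set pass the threshold against wild type. In Klf3-null arrays 0 of 37 passed, where 0.585% of all clusters did, and the median difference was -0.06. By an unadjusted p under 0.05 5 genes differed, against 7.83% of all clusters. In 7 genes, Col3a1, Col5a1, Col14a1, Postn, Pdgfrb, Acta2 and Lrat, all Klf3-null arrays lay below all wild-type arrays (18.9%, against 5.70% of clusters). The Postn signal was 6.94, 7.02 and 7.22 in Klf3-null arrays and 7.56, 8.42, 8.51 and 8.36 in wild type, with replicate 1 the low wild-type array. The difference was -1.15 ± 0.31 (adjusted p = 0.177), and it passed without doubly mutant replicate 4, an array that enters this comparison only through the shared estimate of spread. In the doubly mutant group Postn read 8.40, 9.0, 8.82 and 7.30, so replicate 4 was near the Klf3-null values and the others were not. Acta2 read 8.30, 7.84 and 7.91 in Klf3-null and 8.74, 8.62, 8.57 and 8.51 in wild-type arrays, a difference of -0.59 ± 0.21 (adjusted p = 0.464). In a fit of these 2 groups alone Postn and Acta2 passed. The share of clusters in that fit is not given here. Over all settings other than leaving 1 array out, 110 to 481 clusters passed. The Klf3-null arrays held the lowest signal of all 15 for 15 of 37 genes (40.5%), against 11.6% of clusters, 13 of them in replicate 2.

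In Klf8-trap arrays 0 of 37 passed, and 0% of all clusters did, with 4 matrix genes and 13.4% of clusters at an unadjusted p under 0.05. These 4 were Lamc1 (0.41 ± 0.18, adjusted p = 0.337), Fn1 (0.65 ± 0.28, adjusted p = 0.335), Timp3 (0.70 ± 0.31, adjusted p = 0.349) and Lrat (0.30 ± 0.14, adjusted p = 0.359). Klf8-trap replicate 1 was the lowest of its group in all 4, with Fn1 at 11.22, 12.08, 11.96 and 11.99 in replicates 1 to 4. Without that array 2 genes passed, Lamc1 and Timp3. Over all clusters the count ran from 0 to 1683 with 1 array left out. The count for that array alone is not given here, so the 2 genes have no matching share. The mean hepatocyte signal was also lowest in replicate 1, at 12.44, and was 12.96 to 13.11 in the others, against 12.10 to 12.46 in wild type, and its part in these differences was not tested. For type I collagen the Klf8-trap arrays gave a Col1a1 difference of -0.02 (95% interval -0.37 to 0.33) and a Col1a2 difference of 0.01 (-0.27 to 0.29).

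Over the 7 Klf3-deficient against the 8 Klf3-intact arrays, with genotypes weighted equally, 1 of 37 genes passed (2.70%), where 2.38% of clusters did. It was Col6a2, at 0.29 ± 0.06 (adjusted p = 0.0121), and it read 7.74, 7.51 and 7.67 in Klf3-null arrays, a range that overlapped both Klf3-intact groups. Vim gave 0.46 ± 0.12 (adjusted p = 0.0633) and passed without wild-type replicate 4 or doubly mutant replicate 1, when the count was 2. Col1a2 passed beside Col6a2 without doubly mutant replicate 2. The test of whether the effect of the Klf3 allele differed with and without the Klf8 trap called 0 of 37 genes, and 0.00427% of clusters. By an unadjusted p under 0.05 10 genes differed, all 5 fibrillar genes among them, against 14.4% of clusters. The estimate was 1.01 ± 0.24 for Col1a1 (adjusted p = 0.127), 0.56 ± 0.13 for Col5a1 (adjusted p = 0.123) and 0.46 ± 0.12 for Col6a2 (adjusted p = 0.143). The count was 4 without doubly mutant replicate 4 and 1 without Klf8-trap replicate 1. Over all clusters it was 1 in the main fit and ran from 0 to 718 with 1 array left out.

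Genes that modify, carry or sense collagen were read as lists of their own. Of 15 collagen processing genes 2 rose in doubly mutant against wild-type arrays, where 1.52% of all clusters did, and none fell. P4ha2, a prolyl hydroxylase subunit that stabilises the collagen triple helix, read 6.26, 5.85, 6.21 and 6.10 in wild type and 6.69, 7.50, 7.12 and 7.22 in doubly mutant arrays. The groups did not overlap, and the log2 difference was 1.03 ± 0.15 (adjusted p = 8.92e-04), with no fold because wild type lay below the array medians. Klf3-null arrays, at 6.92, 6.43 and 6.61, lay above wild type and overlapped the doubly mutant ones. Klf8-trap arrays, at 6.39, 6.63, 6.56 and 6.58, also lay above wild type, and below the doubly mutant ones. P4ha2 was the only listed processing gene higher over Klf3-deficient arrays, by 0.57 ± 0.11 (adjusted p = 0.00834). Against Klf8-trap arrays it was higher by 0.59 ± 0.15 (adjusted p = 0.0419), a call that 15 of 25 alternatives lost. Plod2, a lysyl hydroxylase that sets collagen crosslinks, read 6.34, 6.41, 6.31 and 6.27 in wild type and 6.76, 8.08, 7.22 and 7.91 in doubly mutant arrays. The difference was 1.16 ± 0.23 (adjusted p = 0.00985), and Klf8-trap replicates 2 to 4 were also above wild type, at 6.90, 7.01 and 7.04. So were all Klf3-null arrays, at 6.55, 6.67 and 6.84. Both calls held when macrophage signal was a covariate, and the Plod2 call was lost in a fit of these 2 groups alone (adjusted p = 0.0667, with alternatives from 8.93e-05).

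Of 17 other collagen chains 1 rose against wild type, Col12a1 by 0.45 ± 0.11 (adjusted p = 0.0314), at a mean below the array medians in every group, and the call was lost in 9 of 23 alternatives. In the TGF-beta and PDGF signalling list 0 of 17 passed, in the pericyte and stellate list 0 of 13 and in the endothelial list 0 of 12. The median differences from wild type were 0.15, 0.15 and -0.08 for these lists. Of 6 mesothelial markers Krt19 rose by 0.58 ± 0.14 (adjusted p = 0.0301), and that call was lost in 8 of 24 alternatives. The mean pericyte and stellate signal was 7.04 to 7.15 in wild type and 7.11 to 7.46 in doubly mutant arrays, with replicate 3 the highest, as for the fibrillar collagens.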

How the data were processed

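RNA of TER119-positive E13.5 fetal liver cells was hybridised to 15 Affymetrix mouse arrays, 1 per sample. Each transcript cluster has 1 deposited log2 signal per array, and the submitters' processing notes name RMA and Partek, without a version. These signals entered the fits unchanged. There are no detection calls, and folds are left out wherever the mean of a compared group is below the array medians. The platform annotation gave 1 symbol to 21789 clusters, several to 1621 and none to 12146, and 21698 matched the gene table of GRCm38.p6.

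All 15 arrays entered 1 model with genotype as the factor, in limma 3.58.1 (R 4.3.3) with eBayes and no trend (prior degrees of freedom 4.27). P-values were two-sided and adjusted by Benjamini and Hochberg over 23410 clusters for every contrast (threshold 0.05). Confidence intervals are at 95%. The procedure was tested on simulated data with independent normal noise and 1 spread per gene in all genotypes. That test does not cover unequal spread between genotypes or signals shared by genes of an array. Spread was unequal here. For Col1a1, Col1a2, Col6a1, Col6a2 and Igfbp5 the doubly mutant SD was 0.41, 0.35, 0.25, 0.13 and 0.43. The wild-type SD was 0.20, 0.072, 0.088, 0.079 and 0.12. Vim went the other way, at 0.27 against 0.32. Where the doubly mutant SD is larger, pooling can make the SE and adjusted p of its comparisons too small. A fit with a separate spread per genotype was not run. The members, gene lists and tests were chosen with earlier results of these data known, and all members could be named, with each gene of the other lists past the threshold. Precision is limited by how few arrays there are: the median SE was 0.11 between groups of 4 and 0.12 for the group of 3.

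No label says that replicate numbers pair arrays. Deviations of same-numbered doubly mutant and Klf8-trap arrays correlated at 0.53, 0.11, 0.16 and 0.18. For doubly mutant and Klf3-null arrays the values were 0.08, 0.07 and 0.16. Deviations are from the group mean, so 1 similar pair also moves the other values, and a pairing by number is not established. Alternatives were a replicate block, only the groups compared, an intensity trend, dim clusters left out, all 35556 clusters, and quantile normalization. Further ones were macrophage or Y-linked signal as a covariate, and each array left out. Doubly mutant replicate 1 and Klf8-trap replicate 1, called the arrays that stood apart, were also left out together. A block fit of the doubly mutant and Klf8-trap arrays alone was added after seeing the data. Promoter windows came from RefSeq (GRCm38.p6).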

Additional observations from a re-analysis of the deposited data

Results flagged for a closer look

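In 14 of 111 groups of 4 arrays, 1 per gene and genotype, a single array lay apart from the other 3 by Dixon's criterion (a gap above 0.829 of the group's range), where chance flags about 1 in 20 groups. Values are log2 signals, and the genes share arrays, so these are not independent.

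Klf8-trap replicate 1 was the low array of its group for Lamb1 (7.85), Lamc1 (8.34), Bgn (7.83) and Fn1 (11.22). Klf8-trap replicate 4 was the high one for Lama1 (7.10) and Postn (8.49). Wild-type replicate 4 was high for Col4a1 (8.44), Col18a1 (8.95) and Reln (10.79), and low for Lama1 (6.66) and Lox (5.45), while wild-type replicate 1 was low for Postn (7.56). Doubly mutant replicate 4 was low for Col14a1 (8.35) and Col4a2 (7.27). The mean endothelial marker signal was also highest in its group in wild-type replicate 4 (9.09, against 8.13 to 8.59) and lowest in Klf8-trap replicate 1 (7.84, against 8.70 to 8.77). Its part in these values was not tested.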

How the results depend on the processing

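No result reversed its direction under an alternative. Of 37 genes 4 passed between doubly mutant and wild-type arrays, and this count was 1 when only the groups compared were fitted (Col6a2), 0 with the macrophage signal as a covariate, 10 without both arrays that stood apart, and 3 to 8 with 1 array left out. Against Klf8-trap arrays the 6 became 1, 0, 6 and 2 to 11 under the same settings. Against Klf3-null arrays the 0 became 2 without both arrays apart and 0 to 11 with 1 array left out. Klf3-null against wild type went from 0 to 2 with only the groups compared and 0 to 1 with 1 array left out, and Klf8-trap against wild type from 0 to 4 without both arrays apart and 0 to 2 with 1 left out. Over all clusters, Klf8-trap against wild type called 0 in the main fit, up to 1683 with 1 array left out and up to 2917 in the other settings. Over Klf3-deficient arrays the 1 gene became 2 with the replicate block, the intensity trend, dim clusters left out, quantile normalization or both arrays apart left out, 0 with the macrophage covariate, and 1 to 2 with 1 array left out. The interaction count was 0 to 4 with 1 array left out. The excess of the fibrillar genes went from 0.27 to 0.12 with the macrophage covariate and 0.17 to 0.36 with 1 array left out. The cause of these changes was not tested.

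With the replicate block over all 15 arrays, 5 genes passed against wild type (Ptn added) and 6 against Klf8-trap arrays, and with the block in the fit of those 2 groups alone 6 passed, 4 of them shared. Over all clusters the doubly mutant count against wild type ran from 262 to 2260, around 772, and against Klf8-trap arrays from 188 to 1777, around 785. Against Klf3-null arrays it ran from 0 to 484, around 11. Klf3-null against wild type ran from 61 to 481, around 137, and Klf3-deficient against Klf3-intact arrays from 311 to 721, around 557. The interaction ran from 0 to 746, around 1. These ranges span the settings and give no share of clusters for any single one. A lowest-mean row per gene was not run, since no member had several. Genes near or below the array medians, such as Mgp, Lox and Lrat, have little signal over background, and small differences in them could not be seen.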
